A study of Sus scrofa with 22 samples.

Results

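The genes described here belong to the acute phase response and to the reactive state of glia. They were chosen by symbol, with no measured value in the rule: SERPINA1, SOCS3, STAT3, OSMR, CD44, TIMP1, CHI3L1, C3, VIM and CP. Earlier results of these data were known when the choice was made. All 10 were found among the 31907 pig gene identifiers of the count tables, and 9 of the 10 had enough reads to be tested. The samples were cerebella, the brain region of balance and movement, from 22 piglets (Sus scrofa). In 11 BDL piglets (7 female, 4 male) the bile duct was ligated on day 8 of life, which blocks the outflow of bile from the liver. The 11 SHAM piglets (5 female, 6 male) had sham surgery at the same age, and both groups were followed for 3 weeks. The labels used here state no strain, litter or feeding. The labels give 1 body weight per animal, without a unit or an age at weighing. It was 2044 ± 313 in BDL and 2035 ± 273 in SHAM piglets (mean ± SD, n = 11 each).

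In an acute phase response, cytokines of the interleukin-6 family bind receptors that share the subunit gp130. Receptor-bound JAK kinases then activate the transcription factor STAT3, which switches on its own inhibitor SOCS3 and, above all in the liver, secreted proteins such as alpha-1-antitrypsin, ceruloplasmin and complement C3. In brain, the same pathway is known from astrocytes that react to injury, which make more intermediate filament, the hyaluronan receptor CD44, the protease inhibitor TIMP1 and the secreted lectin CHI3L1. Microglia, the resident macrophages of brain, are known as a source of complement proteins.

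Libraries held between 14811464 and 20046909 gene counts, and values are given as CPM (a gene's share of all gene counts, scaled to a common total) after scaling by the trimmed mean of M-values (TMM). The tissue label fitted the defining markers: 9 of 9 granule neuron markers were tested, and their summed level was 5400 to 6564 CPM in BDL and 5255 to 6973 CPM in SHAM cerebella. In hepatocytes, the main source of circulating acute phase proteins, ALB and APOA1 are abundant, and these were the only 2 of 7 hepatocyte markers with enough reads to test. APOB, AHSG, FETUB and TAT never exceeded 3 counts in a library. Choroid plexus markers varied with single animals, since TTR lay between 9.48 and 1393 CPM in BDL and between 1.66 and 862 CPM in SHAM cerebella. Because whole tissue was counted, fewer cells of a type and less RNA per cell cannot be told apart.

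None of the 9 tested genes passed the test between BDL and SHAM cerebella. edgeR's quasi-likelihood test, with sex as a covariate and adjustment over 14994 genes, called 0 of the 9 at an adjusted p under 0.05, where it called 0% of all tested genes. At an unadjusted p under 0.05 there was 1 of 9, SERPINA1, beside 4.96% of all tested genes, and limma-voom and DESeq2 gave the same counts of 0 and 1. On the log2 scale 6 of 9 were on the higher side in BDL, beside 50.3% of all genes, and the median change was 0.017, beside 0.001 over all genes. All 9 confidence intervals (95%) lay inside a 1.5-fold change in either direction. The ranges of the 2 groups overlapped for every gene.

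**Figure D1:**
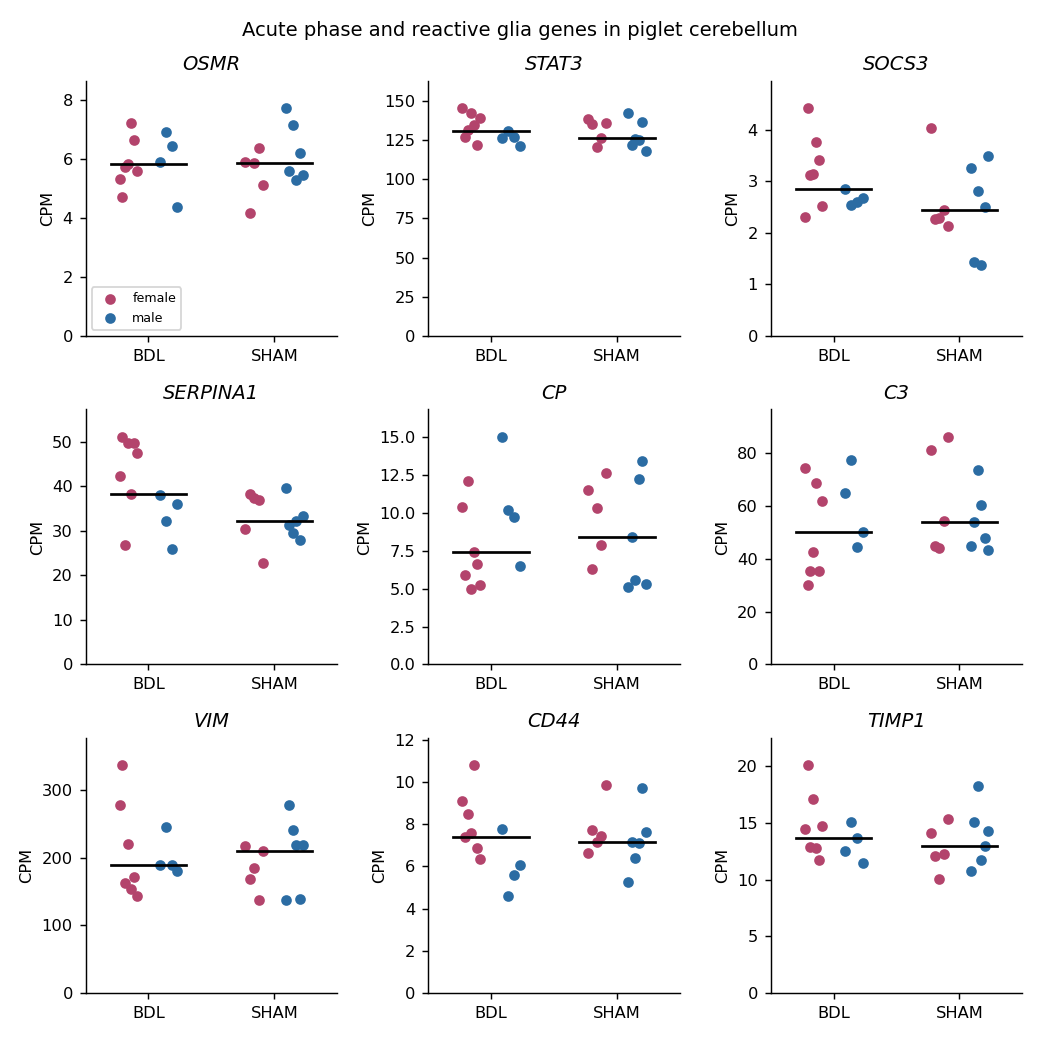
Level of the 9 tested genes in each animal in CPM (vertical axes start at 0), with BDL left of SHAM, females in red and males in blue, and the group median of 11 animals as a bar. The groups overlap in every panel, and 5 BDL females lie above the highest SHAM animal for SERPINA1.

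OSMR (ENSSSCG00000016851, chromosome 16, 24041312 to 24101842 on Sscrofa11.1) encodes the oncostatin M receptor subunit that pairs with gp130. It lay at 4.36, 5.84 and 7.23 CPM (lowest, median and highest) in BDL cerebella, against 4.17, 5.87 and 7.72 CPM in SHAM cerebella. The medians were almost equal and 1 SHAM animal stood above all BDL animals. Its log2 fold change was 0.02 ± 0.11 (SE, edgeR adjusted p = 0.985), with an interval from 0.870-fold to 1.18-fold. Its span overlaps 2 long noncoding RNA genes in the RefSeq table, and reads shared with them could not be told apart if the counting ignored strand.

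IL6, the interleukin-6 gene, was at the limit of counting. It had 13 counts in 7 of 11 BDL libraries and 4 counts in 3 of 11 SHAM libraries, never more than 3 in 1 library, so no fold change is given. OSM was not matched to an identifier. IL6ST, the gp130 gene, was at 86.8 to 122 CPM in BDL and 109 to 135 CPM in SHAM cerebella (n = 11 each), with a log2 fold change of -0.10 ± 0.06. LIFR, the leukemia inhibitory factor receptor gene, was at 35.1 ± 14.8 and 33.5 ± 9.74 CPM in BDL and SHAM cerebella, with a change of 0.07 ± 0.23. Of the list of interleukin-6 family ligands and receptors, 9 of 14 genes were tested, with 5 on the higher and 4 on the lower side (median log2 change 0.02) and 0 past the threshold. CLCF1, a cytokine gene of the list, was at -0.19 ± 0.17.

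STAT3 (ENSSSCG00000017403, chromosome 12, 20407316 to 20471091) encodes the transcription factor on which these receptors converge. Its values were 121, 131 and 145 CPM in BDL and 118, 126 and 142 CPM in SHAM cerebella (lowest, median, highest). It was the steadiest of the 9 genes between animals, with a coefficient of variation of 6.10% in BDL and 6.31% in SHAM, beside medians of 13.9% and 13.3% over all tested genes. The log2 fold change was 0.01 ± 0.04 (edgeR adjusted p = 0.981), and its confidence interval, from 0.947-fold to 1.07-fold, was the narrowest of the 9. These are transcript levels, and STAT3 phosphorylation was not measured.

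SOCS3 (ENSSSCG00000036956, chromosome 12, 3643832 to 3647015), the feedback inhibitor and a direct STAT3 target, lay at 2.30, 2.85 and 4.41 CPM in BDL and at 1.37, 2.45 and 4.03 CPM in SHAM cerebella. Of the 11 BDL animals 8 exceeded the SHAM mean, and 1 exceeded the highest SHAM animal. The log2 fold change was 0.21 ± 0.17 (edgeR adjusted p = 0.881, interval 0.912-fold to 1.47-fold). Libraries held only 22 to 70 counts of SOCS3, the fewest of the 9 tested genes.

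Other genes of the JAK-STAT3 step split evenly. Of 15 listed genes 14 were tested, with 7 on each side, a median log2 change of 0.01 and 0 past the threshold. An unadjusted p under 0.05 was found for 2 of the 14, beside 4.96% of all tested genes. SOCS5, another member of the SOCS family, had the smallest p of all pathway genes listed, with 73.4 ± 6.36 CPM in BDL and 82.2 ± 5.69 CPM in SHAM cerebella. All 11 BDL animals lay under the average of the SHAM group (log2 fold change -0.16 ± 0.05, edgeR adjusted p = 0.881), while the ranges, 64.0 to 81.7 CPM in BDL and 75.3 to 93.0 CPM in SHAM, overlapped. JAK1, the kinase bound to gp130, was at 187 ± 13.1 and 201 ± 9.69 CPM in BDL and SHAM (-0.09 ± 0.04, adjusted p = 0.881), and JAK2 at 23.4 ± 1.52 and 23.8 ± 1.67 CPM (-0.02 ± 0.05). Among known STAT3 targets 12 of 15 were tested, and 0 passed or had an unadjusted p under 0.05. On the higher side were 8 and on the lower side 4 (median 0.06), where 50.3% of all genes were on the higher side. CEBPD, a transcription factor of the acute phase response, was at 0.16 ± 0.09, BCL6 at 0.11 ± 0.07 and MYC at -0.20 ± 0.13.

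SERPINA1 (ENSSSCG00000038515, chromosome 7, 115604282 to 115616915) encodes alpha-1-antitrypsin, the plasma inhibitor of neutrophil elastase. It had 25.9, 38.3 and 51.1 CPM in BDL cerebella, against 22.8, 32.3 and 39.7 CPM in SHAM cerebella (lowest, median, highest). The means were 39.8 ± 9.10 and 32.7 ± 5.11 CPM in BDL and SHAM, and 5 of 11 BDL animals were above the highest SHAM animal. All 5 were female, at 42.3, 47.4, 49.7, 49.8 and 51.1 CPM. The log2 fold change was 0.23 ± 0.11, an increase of 1.18-fold with an interval from 1.0 to 1.38, at an unadjusted p of 0.0494 and an edgeR adjusted p of 0.881. By unadjusted p, 4.91% of all tested genes ranked ahead of it, so its place is near what the whole table gives at that threshold. Summed blood and neutrophil markers were at 10.4 to 22.4 CPM in BDL and 7.95 to 19.3 CPM in SHAM cerebella. Only 4 of the 10 listed blood and neutrophil markers were tested, and the neutrophil genes S100A8, S100A12 and MPO were not among them. All 4 tested markers were on the higher side (median log2 change 0.29), beside 50.3% of all genes, and 0 passed. Their mean log2 CPM and SERPINA1 had Pearson's r = 0.24 over all animals (permutation adjusted p = 0.61). Within BDL animals r was 0.64 and within SHAM animals -0.66 (permutation adjusted p of 0.275 and 0.202). The part of these markers in the SERPINA1 change was not tested. The 2 tested hepatocyte markers, ALB and APOA1, summed to 93.4 to 186 CPM in BDL and 105 to 158 CPM in SHAM cerebella. Most of that was APOA1, at 141 ± 28.4 and 126 ± 18.4 CPM in BDL and SHAM, and 1 of the 2 was on the higher side.

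CP (ENSSSCG00000011700, chromosome 13, 89396713 to 89463540), the gene of ceruloplasmin, a copper-carrying ferroxidase, was at 4.95, 7.40 and 15 CPM in BDL and at 5.12, 8.40 and 13.4 CPM in SHAM cerebella. On the log2 scale the change was -0.06 ± 0.21 (edgeR adjusted p = 0.973, interval 0.707-fold to 1.30-fold). CP was the most variable of the 9, with coefficients of variation of 37.5% in BDL and 35.2% in SHAM, and its span overlaps HPS3, which stood at 17.9 ± 2.79 and 19.5 ± 2.13 CPM in BDL and SHAM. Of 12 listed copper and iron genes 9 were tested, 4 higher and 5 lower, and 0 passed. ATP7B, the copper transporter of Wilson disease, was at 0.13 ± 0.08, SLC40A1, the iron exporter ferroportin, at -0.11 ± 0.07 and FTL, ferritin light chain, at 0.11 ± 0.08.

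C3 (ENSSSCG00000013551, chromosome 2, 72431470 to 72471622), the central complement component, lay at 30.2, 50.1 and 77.3 CPM in BDL cerebella, against 43.4, 53.9 and 86.2 CPM in SHAM cerebella. BDL animals reached lower, with 4 of 11 below the lowest SHAM animal, and 2 SHAM animals stood above all BDL animals. The log2 fold change was -0.12 ± 0.18 (edgeR adjusted p = 0.933, interval 0.714-fold to 1.19-fold). Of 25 listed complement genes 17 were tested, 10 higher and 7 lower, with a median of 0.05, and 0 passed. C3AR1, the receptor for the C3a fragment, was at 1.62 ± 0.763 and 2.20 ± 0.626 CPM in BDL and SHAM (-0.42 ± 0.23, edgeR adjusted p = 0.881). SERPING1, the C1 inhibitor gene, was at 0.15 ± 0.09, C4A at 0.26 ± 0.20 and C1QA, which encodes a chain of the initiating C1q, at -0.01 ± 0.13.

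Other acute phase plasma protein genes were partly below what could be tested. Of 21 listed genes 16 had an identifier and 8 were tested. In BDL 1 was on the higher and 7 on the lower side (median -0.14), where 50.3% of all genes were on the higher side. Past the threshold were 0 of 8, and 0 had an unadjusted p under 0.05. Their summed level was 55.9 to 127 CPM in BDL and 63.8 to 125 CPM in SHAM cerebella. The smallest p belonged to PTX3, a pentraxin (-0.17 ± 0.14), and LBP, which binds lipopolysaccharide (-0.34 ± 0.27). FGG, ITIH3, AMBP, APCS and APOH had at most 3 counts in any library. HP and SERPINA3 were not matched to an identifier.

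CHI3L1 (ENSSSCG00000015476, chromosome 9, 113885541 to 113895033), a secreted lectin used as a marker of reactive astrocytes in human disease, was the member that was not tested. It had 3 counts in 3 of 11 BDL libraries and 3 counts in 2 of 11 SHAM libraries. No library held more than 2. A count of 0 allows up to 3 counts, which is 0.149 to 0.200 CPM in these libraries, so a difference between the groups under that level was not detectable at this depth. Intervals and limits of this kind cover counting error only.

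VIM (ENSSSCG00000011033, chromosome 10, 43516441 to 43526172), the intermediate filament vimentin of glia, fibroblasts and vessels, was at 143, 189 and 337 CPM in BDL and at 137, 210 and 279 CPM in SHAM cerebella. The BDL median was the lower one, while the BDL mean was higher (206 ± 59.3 and 196 ± 46.5 CPM in BDL and SHAM), because 1 BDL female stood above all other animals at 337 CPM. The estimated log2 fold change was 0.09 ± 0.16 (edgeR adjusted p = 0.940). GFAP, the astrocyte filament gene, was at 3812 ± 771 and 3702 ± 888 CPM in BDL and SHAM (0.06 ± 0.13, adjusted p = 0.954).

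CD44 (ENSSSCG00000013297, chromosome 2, 25788699 to 25884209), the hyaluronan receptor, lay at 4.59, 7.41 and 10.8 CPM in BDL, against 5.26, 7.18 and 9.88 CPM in SHAM cerebella. BDL animals held both the lowest and the highest value. CD44 had a log2 fold change of -0.09 ± 0.12 (edgeR adjusted p = 0.931). TIMP1 (ENSSSCG00000012277, X chromosome, 42103251 to 42106289), an inhibitor of matrix metalloproteinases, was at 11.5, 13.7 and 20.1 CPM in BDL and at 10.1, 13 and 18.3 CPM in SHAM cerebella (0.08 ± 0.11, adjusted p = 0.928). The TIMP1 span overlaps that of SYN1, the neuronal synapsin gene, which stood at 186 ± 26.5 and 185 ± 26.1 CPM in BDL and SHAM (-0.02 ± 0.08).

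Of 29 other listed reactive astrocyte genes 24 were tested, 17 higher and 7 lower in BDL, where 50.3% of all genes were higher. The median log2 change was 0.07, beside 0.001 over all genes. The threshold was passed by 0, and 1 of 24 had an unadjusted p under 0.05, beside 4.96% of all genes. MAOB, monoamine oxidase B, was at 41.0 to 58.0 CPM in BDL and 34.4 to 54.1 CPM in SHAM cerebella, with 10 of 11 BDL animals over the SHAM average (0.15 ± 0.07, edgeR adjusted p = 0.881). S100A6, a calcium-binding protein gene, was at 0.31 ± 0.17 and HSPB1, a small heat shock protein gene, at 0.19 ± 0.11. Astrocyte and Bergmann glia markers lay with 6 of 7 on the lower side, at summed levels of 1324 to 2161 CPM in BDL and 1636 to 2042 CPM in SHAM cerebella. Their part in these values was not tested. In the matrix list 16 of 20 genes were tested, 7 higher and 9 lower, and 0 passed. TNC, the glycoprotein tenascin C, was at 92.9 ± 16.2 and 106 ± 20.0 CPM in BDL and SHAM (-0.22 ± 0.10, adjusted p = 0.881), ADAM10, a sheddase gene, at -0.09 ± 0.06 and HAS1, a hyaluronan synthase gene, at -0.33 ± 0.22.

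The interaction of treatment and sex asks whether ligation acted differently in females and males. edgeR called 0 of 9 genes (0% of all tested genes), with 0 of 9 at an unadjusted p under 0.05 beside 4.60% of all genes. Limma-voom and DESeq2 gave 0 and 0 as well. Of the 9, 7 were on the higher side (a more positive change in females), beside 51.5% of all genes. SERPINA1 was at 43.6 ± 8.72 CPM in BDL females (n = 7) and 33.2 ± 6.61 CPM in SHAM females (n = 5), a log2 fold change of 0.40 ± 0.15 at an unadjusted p of 0.0122 and an edgeR adjusted p of 0.795. In males it was at 33.0 ± 5.33 CPM after BDL (n = 4) and 32.3 ± 4.11 CPM after SHAM surgery (n = 6), a change of 0.03 ± 0.16. The difference between these changes, female minus male, was 0.36 ± 0.22 (edgeR adjusted p = 0.917), so the sexes were not shown to differ. Within females 1 of 9 genes, SERPINA1, had an unadjusted p under 0.05, beside 5.84% of all genes, and within males 0 of 9, beside 4.07%. The adjusted call was 0 of 9 in each sex, beside 0% of all genes. On the higher side in BDL were 7 of 9 in females, beside 50.5% of all genes, and 4 of 9 in males, beside 47.5%.

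For CP the difference between the sexes was -0.69 ± 0.41, with 7.51 ± 2.74 CPM in BDL and 9.73 ± 2.59 CPM in SHAM females and 10.3 ± 3.51 CPM in BDL and 8.33 ± 3.67 CPM in SHAM males (edgeR adjusted p = 0.917). For C3 it was -0.46 ± 0.35, with 49.8 ± 18.1 CPM in BDL and 62.2 ± 20.2 CPM in SHAM females and 59.2 ± 14.8 CPM in BDL and 54.0 ± 11.4 CPM in SHAM males. In that contrast, where 51.5% of all genes were above 0, 0 of 5 oligodendrocyte markers were above 0 (median -0.80) and 0 of 8 microglia markers (median -0.45). On the other side, that of SERPINA1, were 5 of 5 choroid plexus and ependymal markers (median 2.08, 4 at an unadjusted p under 0.05) and 8 of 9 meningeal and fibroblast markers (median 0.16). No marker passed, and their part in the differences between the sexes for SERPINA1, CP and C3 was not tested.

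**Figure D2:**
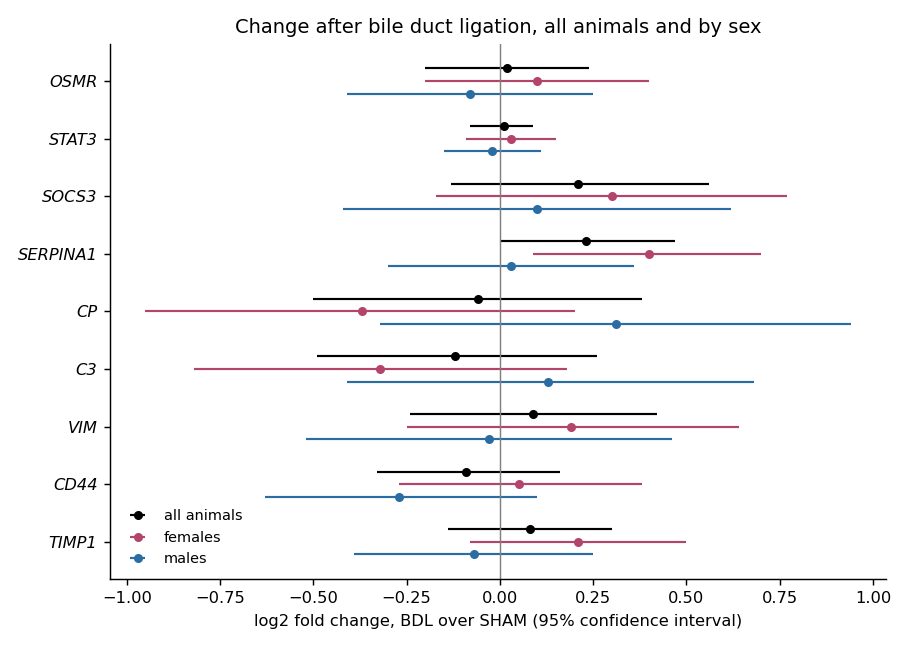
Log2 fold change of BDL over SHAM with its 95% confidence interval for the 9 tested genes, in all animals (black), females (red) and males (blue), from edgeR. The intervals for all animals include 0 for every gene but SERPINA1, whose lower limit lies just above 0 and rounds to it. SERPINA1 in females, at 0.40, is the estimate whose interval lies farthest above 0.

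Between the sexes, irrespective of surgery, 0 of 9 genes passed, beside 0.06% of all tested genes. CD44 was the 1 gene of 9 with an unadjusted p under 0.05, beside 5.97% of all genes, and limma-voom and DESeq2 also gave 0 and 1. It was at 8.08 ± 1.5 CPM in BDL females and 7.78 ± 1.24 CPM in SHAM females, against 6.0 ± 1.34 CPM in BDL males and 7.21 ± 1.48 CPM in SHAM males. The log2 change, female over male, was 0.26 ± 0.12 (edgeR adjusted p = 0.830). TIMP1, although X-linked, was at 0.02 ± 0.11.

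Body weight gave the smallest p of any gene of the group. Per standard deviation of weight (286 in the label's unit), the log2 level of C3 was higher by 0.28 ± 0.08, at an unadjusted p of 0.00143 and an edgeR adjusted p of 0.420 in a fit with sex and treatment. It did not pass the threshold. The 3 highest C3 values, 86.2, 81.3 and 77.3 CPM, belonged to animals of 2360, 2560 and 2240. The 3 lowest, 30.2, 35.3 and 35.4 CPM, belonged to animals of 1820, 2120 and 2080, where the mean weight of all animals was 2039. The slope was 0.30 among BDL animals alone (adjusted p = 0.828) and 0.27 among SHAM animals alone (adjusted p = 0.681), fits chosen after the data were seen. OSMR was at 0.13 ± 0.05 per standard deviation (unadjusted p = 0.0254, adjusted p = 0.622). These were 2 of 9 genes at an unadjusted p under 0.05, beside 7.39% of all genes, and 0 of 9 passed, beside 0% of all genes. Limma-voom and DESeq2 also gave 0 and 2.

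The slopes of all 8 tested microglia markers were also positive, beside 50.3% of all genes, with a median of 0.14, and 0 passed. So were those of 7 of 7 astrocyte and Bergmann glia markers (median 0.10), while 0 of 5 choroid plexus and ependymal markers had a positive slope (median -0.59, 3 at an unadjusted p under 0.05). None of these passed either. P2RY12, a purine receptor of resting microglia, was at 0.27 ± 0.06 (edgeR adjusted p = 0.336) and GPR34 at 0.19 ± 0.06. Among complement genes, C3AR1 was at 0.32 ± 0.11, C1QB at 0.22 ± 0.08 and C1QC at 0.18 ± 0.08 (adjusted p of 0.516, 0.516 and 0.650). The part of these markers in the C3 slope was not tested.

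**Figure D3:**
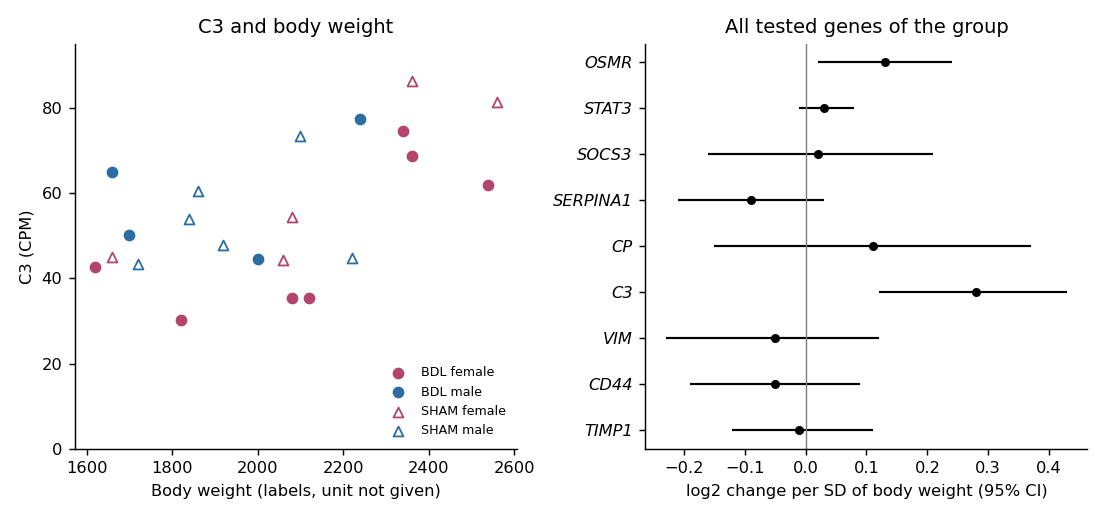
Left, C3 in CPM against the labelled body weight, 1 point per animal, filled circles for BDL and open triangles for SHAM, red for females and blue for males. Right, log2 change per standard deviation of weight with its 95% confidence interval for the 9 tested genes. C3, at 0.28, and OSMR, at 0.13, have intervals above 0 before adjustment.

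The 9 genes did not vary as 1 block between animals. Over the 36 pairs, Pearson's r of log2 CPM across 22 animals ran from -0.58 to 0.67 with a median of 0.04, and 22 pairs were positive. STAT3 and its target SOCS3 had r = 0.13, STAT3 and OSMR r = 0.11, and SOCS3 and SERPINA1 r = 0.33. After Benjamini-Hochberg adjustment over the 36 pairs, 1 pair passed, TIMP1 with VIM (r = 0.67, permutation p = 0.00081, adjusted p = 0.0292; rho = 0.65, permutation p = 0.00153, adjusted p = 0.0551). Without the 2 animals farthest from the TIMP1 median, r was 0.51. It was 0.71 within BDL and 0.62 within SHAM animals, where adjusted p-values were 0.503 and 0.307. SERPINA1 and CP ran in opposite directions (r = -0.58, permutation p = 0.00519, adjusted p = 0.0934; rho = -0.55, permutation p = 0.00993, adjusted p = 0.179), with r = -0.53 without 2 animals. With sex and treatment removed that pair passed (r = -0.62, adjusted p = 0.0272).

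Against markers of 9 cell types, several of the genes followed a particular cell type from animal to animal. The marker score of an animal was the mean log2 CPM of the tested markers of a type, and 81 relations were computed and adjusted together. C3 followed the microglia score, with r = 0.88 and rho = 0.87 (permutation p = 1e-05 each, the smallest that 100000 resamples can give, adjusted p = 0.00081), and r = 0.83 without the 2 animals farthest from the median score. It was 0.87 within BDL and 0.88 within SHAM animals (adjusted p of 0.0362 and 0.0198). VIM followed the meningeal and fibroblast score, with r = 0.75 (permutation p = 7e-05, adjusted p = 0.00283), rho = 0.73 (permutation p = 0.00014, adjusted p = 0.00567), and 0.73 without 2 animals. TIMP1 followed the same score, with r = 0.63 (permutation p = 0.00176, adjusted p = 0.0356), rho = 0.67 (permutation p = 0.001, adjusted p = 0.0202), and 0.60 without 2 animals. CP followed the oligodendrocyte score, with r = 0.70 (permutation p = 0.0002, adjusted p = 0.0054), rho = 0.72 (permutation p = 0.00024, adjusted p = 0.00648), and 0.68 without 2 animals.

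These relations had the same sign within each surgery, though with 11 animals some did not pass. VIM and the meningeal score had r = 0.83 in BDL (adjusted p = 0.0362) and 0.72 in SHAM animals (adjusted p = 0.146). TIMP1 had 0.67 in BDL and 0.73 in SHAM animals (adjusted p of 0.275 and 0.146), and CP with the oligodendrocyte score 0.62 in BDL and 0.87 in SHAM animals (adjusted p of 0.275 and 0.0198). Within BDL animals CP had a higher r with the Purkinje cell score, 0.71, which was -0.56 within SHAM animals (permutation adjusted p of 0.275 and 0.335). The labels name no batch, so no within-batch value can be given. With these scores, no relation of OSMR, STAT3, SOCS3, SERPINA1 or CD44 passed. The strongest of these by r was SERPINA1 with astrocyte and Bergmann glia markers (r = -0.54, permutation p = 0.00897, adjusted p = 0.143). Its rho was -0.46 (permutation p = 0.0307, adjusted p = 0.226), and r was -0.26 without 2 animals. By rho the strongest was STAT3 with blood and neutrophil markers (rho = 0.55, permutation p = 0.00888, adjusted p = 0.144). Its r was 0.52 (permutation p = 0.0145, adjusted p = 0.157), and 0.54 without 2 animals. With the log2 of the summed CPM as the score the SERPINA1 relation passed by r (r = -0.59, permutation p = 0.00297, adjusted p = 0.0481). It did not pass by rho (-0.54, permutation p = 0.011, adjusted p = 0.16), and r was -0.37 without 2 animals. Values of 1 library share its depth and its dissection, and genes of 1 library are not independent.

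**Figure D4:**
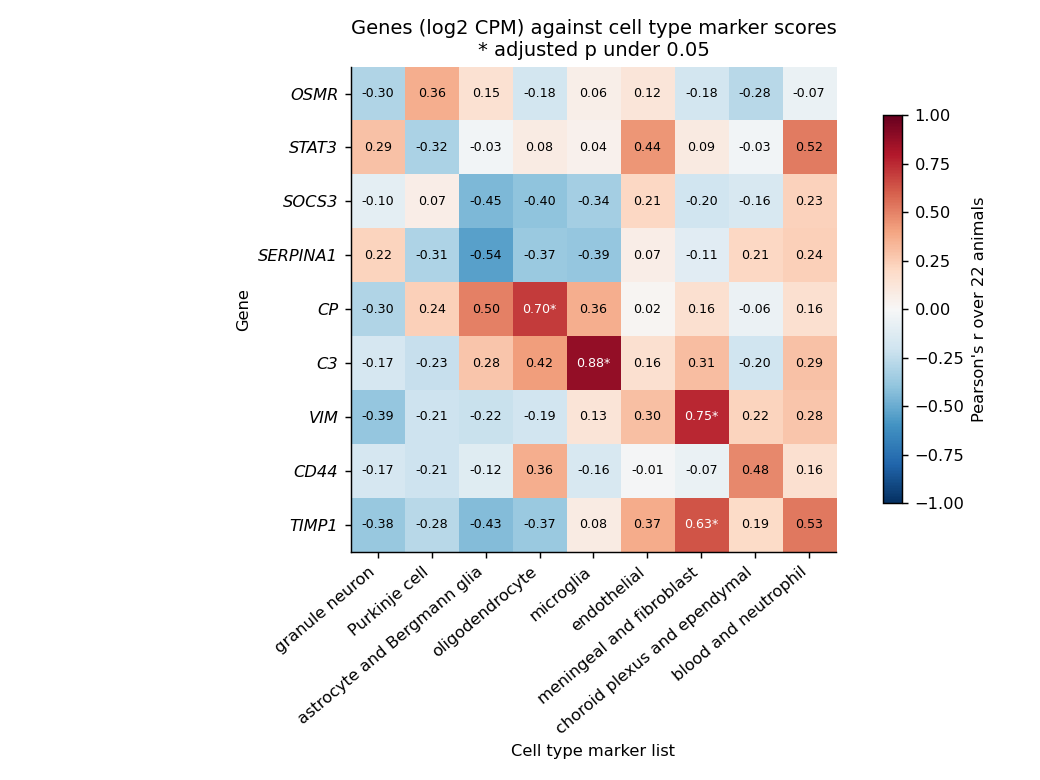
Pearson's r over 22 animals between the log2 CPM of each of the 9 tested genes (rows) and the mean log2 CPM of the markers of 9 cell types (columns), with an asterisk at an adjusted p under 0.05. Asterisks stand at C3 with microglia (0.88), VIM and TIMP1 with meningeal and fibroblast markers (0.75 and 0.63) and CP with oligodendrocytes (0.70).

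**Figure D5:**
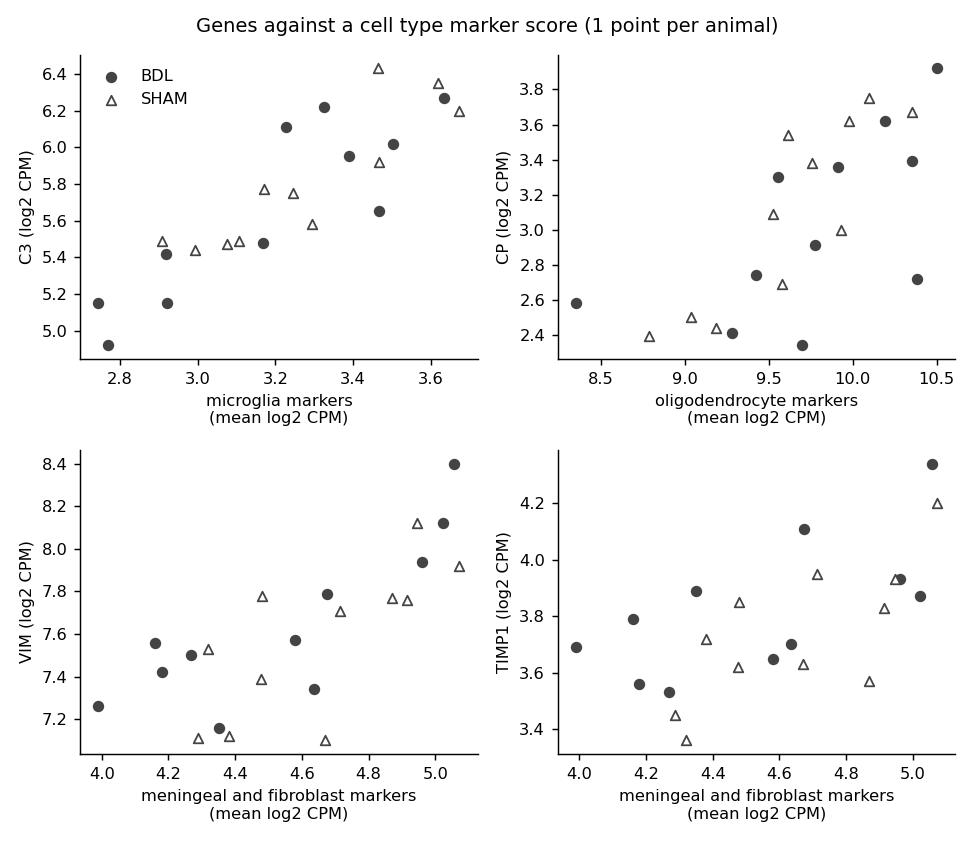
Log2 CPM of C3, CP, VIM and TIMP1 against the marker score named on each horizontal axis, 1 point per animal, filled circles for BDL and open triangles for SHAM. BDL and SHAM animals lie along the same rising cloud in each panel, with r of 0.88 for C3, 0.70 for CP, 0.75 for VIM and 0.63 for TIMP1.

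The scores themselves covered similar ranges in the 2 groups. The microglia score lay at 2.74 to 3.63 in BDL and 2.91 to 3.67 in SHAM cerebella. Meningeal and fibroblast scores were 3.99 to 5.06 and 4.29 to 5.07, and oligodendrocyte scores 8.35 to 10.5 and 8.78 to 10.35, in BDL and SHAM. As summed CPM, a different measure, microglia markers were at 74.7 to 158 CPM in BDL and 93.1 to 157 CPM in SHAM cerebella. On the higher side were 2 of 8 microglia markers, beside 50.3% of all genes. Summed meningeal and fibroblast markers were at 249 to 623 CPM in BDL and 319 to 610 CPM in SHAM cerebella (1 of 9 higher), and oligodendrocyte markers at 4726 to 27238 CPM in BDL and 6764 to 23879 CPM in SHAM cerebella (5 of 5 higher). Each marker of these 3 lists that had a symbol was tested, and 0 passed between BDL and SHAM.

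The genes most like each member were sought among 12316 tested genes with a symbol, by Pearson's r of log2 CPM over 22 animals after removing sex and treatment, given here as a description. TIMP1 lay closest to SRPX (r = 0.92), MRGPRF (0.83) and PCOLCE, a procollagen processing gene (0.81). VIM lay closest to AEBP1 (0.89), GXYLT2 (0.88) and FBLN1, the matrix protein fibulin-1 (0.87). For C3 they were LAPTM5, a lysosomal protein gene of leukocytes (0.90), ITGB2, the shared chain of leukocyte integrins and of complement receptor 3 (0.88), and RNF128 (0.87). CP was most like PIP4K2A (0.83) and PLA2R1 (0.82), and STAT3 most like PLXNA2 (0.81), ZNFX1 (0.79) and SPRED2 (0.77). CD44 had ANXA5 (0.77) and, with 0.76 each, HSD17B7 and EBP, which are enzymes of cholesterol synthesis. The neighbours of SERPINA1 were POP1 (0.78), EYA3 (0.77) and AKAP8 (0.75), those of SOCS3 were EXOG and LRP2BP (0.74 each) and NOTUM (0.72), and those of OSMR were WDR31 (0.71), STXBP3 (0.69) and NRSN2 (0.68). None of these genes passed the treatment test. For the sparse SOCS3 the values rest on few counts, since EXOG had as few as 4 counts in a library.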

How the data were processed

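Per the labels' protocols, cerebellar RNA of 22 piglets was read in pairs of 150 bp. The deposited values are raw counts of reads for each Ensembl gene, with 1 table for every animal. The submitters' processing notes name Trim Galore, HISAT2, HTSeq, DESeq2 and the build Sscrofa11.1. Versions, and whether counting used strand, are likewise not given in the sources used here. The 5 lines that name no gene held 29.9% to 34.6% of the counts of each table and were left out. Of 31907 identifiers 15029 matched a symbol. No 2 libraries held identical counts. RefSeq gene coordinates on Sscrofa11.1, looked up by symbol, gave positions and overlaps. Promoter and protein sequences were not used here.

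Genes were filtered with filterByExpr (minimum count 10, minimum total 15, treatment as group), which kept 14994 genes, scaled by TMM and tested across all of them with edgeR 4.0.16 (R 4.3.3) by a robust quasi-likelihood fit on sex and treatment. A model of the 4 groups of surgery and sex gave the interaction and each sex's effect, and weight was added to the first model. P-values were adjusted by Benjamini-Hochberg with a threshold of 0.05, and intervals are at 95%. Replicates are animals numbered in order of deposition, and nothing says whether any shared a litter. Limma 3.58.1 (voom) and DESeq2 1.42.0, other filters, scalings and covariates, and leaving out each animal were tried. Correlations used log2 CPM with a prior count of 2 and two-sided permutation tests of 100000 resamples.

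The members and lists were chosen with earlier results of these data known. Genes named from a list are those past the threshold or otherwise up to 3 with the smallest p. For each member the 3 genes with the most similar pattern are named (a few genes that these rules select are not reported here), 10 genes are named whatever their values, and SYN1 and HPS3 were added after their values were seen. Further genes, among them those given for body weight, for the hepatocyte markers and for low counts, were also chosen after their values were seen.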

Additional observations from a re-analysis of the deposited data

Results flagged for a closer look

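Within the 4 groups of surgery and sex, a single animal stood apart on the log2 scale for 2 of 36 combinations of gene and group, where chance gives about 1 in 20. SOCS3 was at 4.03 CPM in SHAM replicate 2, against 2.13 to 2.45 CPM in the other SHAM females. VIM was at 246 CPM in BDL replicate 6, against 181 to 189 CPM in the other BDL males. Without SHAM replicate 2 or BDL replicate 6, as without any other single animal, no gene of the group passed the treatment test.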

How the results depend on the processing

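No gene of the group passed any of the 6 comparisons under any alternative run, and leaving out single animals was run for 3 of them (treatment, interaction and weight). SERPINA1 had an unadjusted p of 0.05 or more with library totals in place of TMM, with body weight added and with animal number added. The treatment comparison called 0 genes in all leave-one-out fits, and the interaction likewise 0, while the weight comparison called 0 to 9. With DESeq2 the counts of genes called were 1 for BDL against SHAM, 23 for female against male, 1 within males and 8 for weight. Without the count filter 31 genes passed between the sexes. Log2 changes near 0 turned sign: VIM within males was 0.0065 and TIMP1 with weight 0.0008 in limma-voom, OSMR was -0.0028 with no sex term, and STAT3 was -0.0003 with animal number added. In BDL animals alone SOCS3 with weight was -0.13, and in SHAM animals alone TIMP1 and VIM with weight were 0.071 and 0.029. The cause was not tested. Leaving out 1 animal gave 0.16 to 0.29 for SERPINA1 and 0.16 to 0.31 for SOCS3 in the treatment comparison. It gave -0.0093 to 0.021 for STAT3, -0.028 to 0.073 for OSMR, -0.19 to 0.022 for CP, -0.20 to -0.022 for C3, 0.007 to 0.14 for VIM, 0.034 to 0.13 for TIMP1 and -0.14 to -0.03 for CD44, and, with weight, -0.041 to 0.064 for SOCS3, -0.026 to 0.031 for TIMP1 and -0.086 to 0.0071 for VIM. In the interaction CP was at -0.87 to -0.45, C3 at -0.58 to -0.30 and SERPINA1 at 0.25 to 0.45. The C3 slope with weight was 0.24 to 0.31 (adjusted p 0.143 to 0.727). Of the 36 pairs, 0 passed in BDL animals alone, 0 in SHAM animals alone and 2 with sex and treatment removed. Of the 81 relations with marker scores, 4 passed in all animals, 3 in BDL animals alone (C3 and VIM as in all animals, and TIMP1 with blood and neutrophil markers, r = 0.83, permutation adjusted p = 0.0362), 2 in SHAM animals alone, 4 with sex and treatment removed and 5 with summed CPM as the score. By rho, none of the 3 passed in BDL animals alone. No paired analysis was possible because the replicate numbers were given in accession order and say nothing of which animals belong together. Depth limits SOCS3, and it prevents a fold change between the groups for CHI3L1 and IL6.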
